A study of Homo sapiens with 6 samples.

Results

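The mucin genes of Calu3 cells were followed after siRNA against BRD8. Calu3 is a human lung adenocarcinoma line with airway epithelial features. The 8 genes, taken by symbol out of 26364 in the deposited table, comprise the secreted mucins MUC2, MUC5AC and MUC5B and the membrane mucins MUC1, MUC4, MUC13, MUC16 and MUC20. The groups were 3 libraries of Calu3 cells given BRD8 siRNA and 3 of Calu3 cells given a negative control siRNA, both at 20 nmol with the same transfection reagent. BRD8 encodes a subunit of a TIP60 histone acetyltransferase complex. All 6 libraries come from 1 cell line and all knockdown libraries from 1 siRNA product, so effects of that product apart from BRD8 loss cannot be told apart from those of BRD8 loss. The labels do not say whether libraries of a group came from separate cultures. The spread behind each p-value is thus that of these 6 libraries and may be technical in origin.

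Mucins are large glycoproteins that cover wet epithelia. The secreted gel-forming mucins are folded in the endoplasmic reticulum, linked into polymers through disulfide bonds and stored in granules until release. MUC5AC and MUC5B are the main polymers of airway mucus, made by surface secretory cells and by submucosal glands, while MUC2 is the main mucin of the intestine. The membrane mucins are anchored in the apical cell surface, where they form a brush, are shed by proteases and can pass signals to the cytoplasm. Both kinds carry stretches rich in serine, threonine and proline, on which O-linked sugars are built.

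These stretches are written in the genes as tandem repeats, which are shown because they differ from member to member and because short reads cannot always be placed among near-identical copies. The units below are the most common repeat unit of the coding sequence in GENCODE v29 (build GRCh38), written 5′ to 3′ on the coding strand, with codons for serine, threonine or proline in capitals.
MUC5AC, chromosome 11, plus strand: gctCCTACAACCAGCACAACCTCT
MUC5B, chromosome 11, plus strand: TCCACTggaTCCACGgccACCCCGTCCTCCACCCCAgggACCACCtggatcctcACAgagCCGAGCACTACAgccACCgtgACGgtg
MUC1, chromosome 1, minus strand: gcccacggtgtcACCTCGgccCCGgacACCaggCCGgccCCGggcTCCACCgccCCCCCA
MUC4, chromosome 3, minus strand: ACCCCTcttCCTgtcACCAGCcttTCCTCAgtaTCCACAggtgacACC
MUC20, chromosome 3, plus strand: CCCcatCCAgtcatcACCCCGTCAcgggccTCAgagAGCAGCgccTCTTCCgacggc
In the MUC5AC unit 7 of 8 codons were of these kinds, in the MUC1 unit 10 of 20, in the MUC4 unit 10 of 16, in the MUC20 unit 10 of 19 and in the MUC5B unit 19 of 29. The coding sequence of MUC2 was not analysed here. Over the whole coding sequence of the other 7 genes the share of such codons was highest in MUC4, at 48.0%, and lowest in MUC13, at 30.7%. Where repeats were counted as neighbouring units of at least 80% identity, they made up 69.4% of the MUC1 coding sequence, 59.7% of that of MUC4, 32.7% of that of MUC20 and 24.4% of that of MUC5AC. The share was 8.72% in MUC13, 4.20% in MUC5B and 1.96% in MUC16. Only units of 15 to 300 bases were searched, and a single unit length was taken for each gene. Repeats with longer units are not counted, so a low share does not show that a gene lacks repeats. The MUC1 unit shown occurs 19 times without a change of letter in the MUC1 coding sequence. How the authors counted reads that fit several places is not given in the sources used here, so a member's level may leave out part of its repeat.

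The libraries held 33640814 to 37896467 reads assigned to genes. Levels are normalized counts, the reads of a gene divided by a size factor for its library, and fold changes are on the scale of log2(normalized count + 1), from limma, a linear model fitted across all tested genes. BRD8 itself had 1312, 1084 and 1156 normalized counts in the BRD8 siRNA libraries, against 2751, 2928 and 3067 in the control libraries, with no overlap (log2 fold change -1.30, SE 0.0904, limma adjusted p = 1.13e-04). The epithelial genes EPCAM, CDH1, KRT8, KRT18, KRT19, KRT7, CFTR, CLDN4 and ELF3 were all expressed, with EPCAM at 21433 normalized counts after BRD8 siRNA and 21509 in controls. The secretory cell products SCGB1A1, TFF3 and CLCA1 were at or near 0, with group means from 0 to 2.05 normalized counts, although MUC5AC and MUC5B were abundant. Other genes of the mucus assembly list were present and called higher. BPIFB1 stood at 276 normalized counts after BRD8 siRNA and 140 in controls, and AGR3 at 82.9 after BRD8 siRNA and 52.4 in controls. TFF1 stood at 44.9 after BRD8 siRNA and 18.7 in controls, and TFF2 at 25.5 after BRD8 siRNA and 7.12 in controls. These genes were picked from that list after their values were seen. TFF2 passed the filter of a mean of at least 10 only through the BRD8 siRNA group, so its higher level was partly set by the filter. Among markers of other cells, the fibroblast collagen COL1A2 and the intestinal FABP1 were at 0 in every library, and the alveolar SFTPC had 1 read in all. Other markers of the same lists were expressed. In the control libraries the intestinal list summed to 35444 to 48805 normalized counts, the alveolar list to 1570 to 1759 and the non-epithelial list to 1522 to 1911.

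Of the 8 mucin genes, 4 were higher after BRD8 siRNA and none was lower at a limma adjusted p under 0.05 over 15354 tested genes, where 10.1% of all tested genes were called higher and 8.93% lower. The genes that rose were MUC20, MUC5B, MUC1 and MUC13. All 8 fold changes were positive, with a median log2 fold change of 0.49, against -0.01 over all tested genes. The 8 genes were chosen with earlier results of these data known, so their shared direction is not independent of that choice. The 6 tested mucin family genes outside the set had a median of -0.09. In 6 of the 8 the libraries of the groups did not overlap, and 18.9% of all tested genes were higher without overlap. All 8 passed the filter of a mean of at least 10 normalized counts, though MUC16 did so only through the BRD8 siRNA group. By unadjusted p under 0.05, edgeR, DESeq2 and the authors' deposited table there were likewise 0 lower members.

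**Figure D1:**
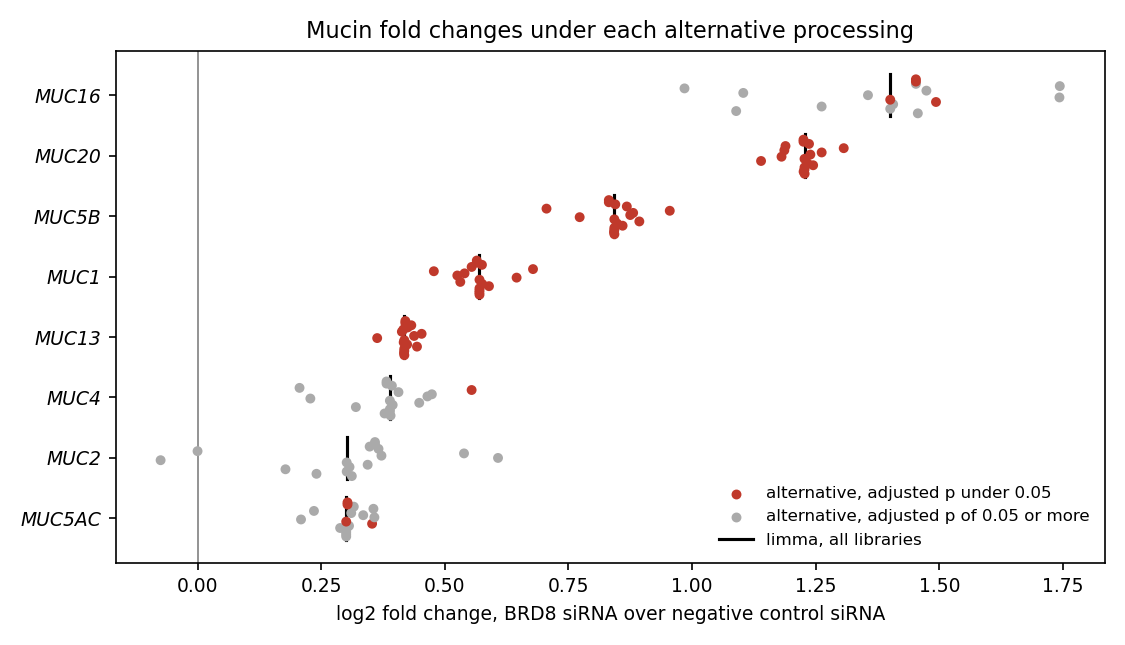
Log2 fold changes of the 8 mucin genes, BRD8 siRNA over negative control siRNA, with all libraries (black line) and under each alternative processing (points, red for an adjusted p under 0.05). The points of MUC20, MUC5B, MUC1 and MUC13 are all red, while those of MUC2 lie on both sides of 0.

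**Figure D2:**
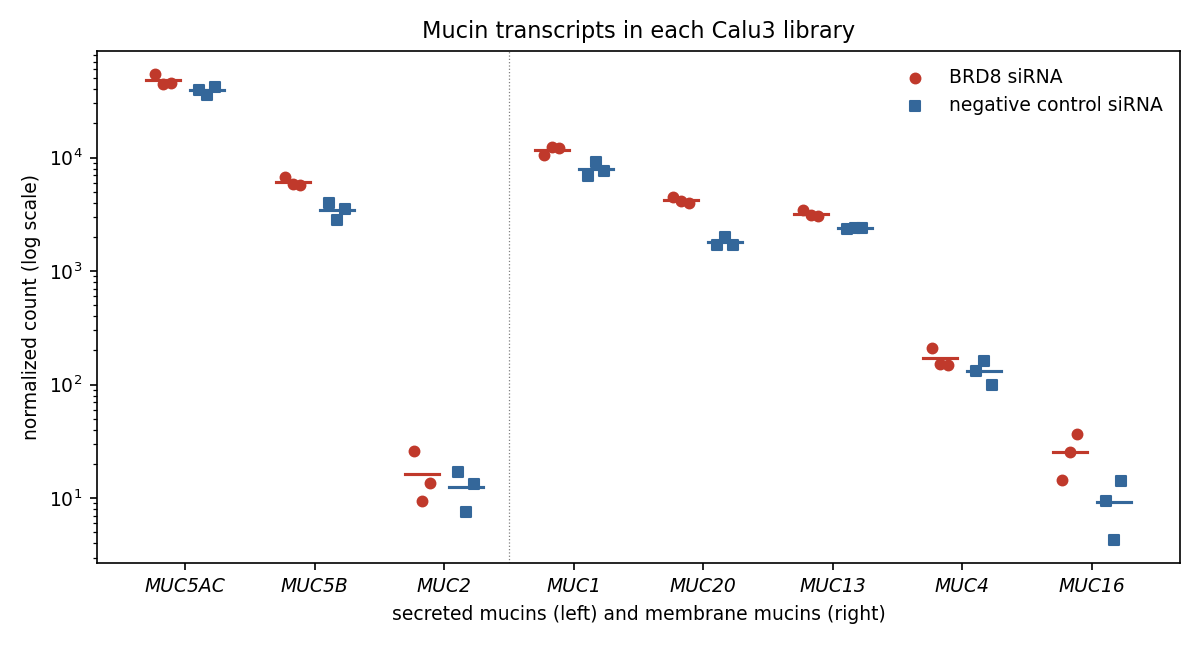
Normalized counts of the 8 mucin genes in each library on a log axis, with BRD8 siRNA libraries (circles) left of control libraries (squares) for each gene and group means as lines. MUC20, MUC5B, MUC1, MUC13, MUC5AC and MUC16 show separate groups, while MUC2 and MUC4 overlap.

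The secreted mucins were led by MUC5AC, whose difference did not pass the test, and MUC5B, which rose. MUC5AC, the surface goblet cell polymer on chromosome 11, had 54390, 44278 and 45689 normalized counts in the BRD8 siRNA libraries, against 39457, 35543 and 41991 in the control libraries. The lowest knockdown library lay above the highest control library, so the groups did not overlap. The mean was 48119 ± 5477 after BRD8 siRNA and 38997 ± 3249 in controls (SD, n = 3 each), with a log2 fold change of 0.30 (SE 0.101, 95% interval 0.07 to 0.53). Its limma adjusted p was 0.0708, with an unadjusted p of 0.0162. DESeq2 on the recovered reads gave an adjusted p of 0.0343 and the authors' deposited table one of 0.0345, so the call depends on the test.

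MUC5B, the other main polymer of airway mucus, lies next to MUC5AC. It had 6715, 5827 and 5780 normalized counts in the BRD8 siRNA libraries, against 3967, 2808 and 3517 in the control libraries. Every knockdown library was far above every control library. The mean was 6107 ± 527 after BRD8 siRNA and 3431 ± 584 in controls, a log2 fold change of 0.84 (SE 0.126, 95% interval 0.56 to 1.13, limma adjusted p = 0.00280). The exons of MUC5B share 434 bases, or 2.33% of their length, with the antisense gene MUC5B-AS1 in GENCODE, and strand was not kept by the library kit.

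MUC2 was close to the limit of detection. It had 25, 10 and 14 reads in the BRD8 siRNA libraries, against 18, 7 and 13 in the control libraries, which is 26.0, 9.48 and 13.5 against 17.1, 7.56 and 13.2 normalized counts. The groups overlapped throughout, and the log2 fold change was 0.30 with an SE of 0.428 (limma adjusted p = 0.665). Without BRD8 siRNA library 1 it was -0.07 (adjusted p = 0.926), so no direction was detectable at this depth.

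MUC5B differed from its neighbour in relative level. The log2 ratio of MUC5B to MUC5AC, each per kilobase of exon, was -3.11, -3.02 and -3.07 in the BRD8 siRNA libraries, against -3.41, -3.75 and -3.67 in the control libraries. The ratio was higher in every knockdown library, by 0.54 on the log2 scale. The exact two-sided permutation test gave p = 0.1, the smallest that 3 libraries against 3 allow, and an adjusted p of 0.15 over the 3 ratios computed. In linear terms MUC5B stood at 0.119 of the MUC5AC level after BRD8 siRNA and at 0.0819 in controls.

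Of the membrane mucins, MUC20, MUC1 and MUC13 rose and MUC4 and MUC16 did not pass the test. MUC20, which is known to bind the hepatocyte growth factor receptor MET, had the largest called change. It had 4474, 4127 and 3998 normalized counts in the BRD8 siRNA libraries, against 1693, 2000 and 1698 in the control libraries. All 3 knockdown libraries lay far above all 3 control libraries. The mean was 4200 ± 246 after BRD8 siRNA and 1797 ± 176 in controls, a log2 fold change of 1.23 (SE 0.0891, 95% interval 1.03 to 1.43, limma adjusted p = 1.34e-04). Of all tested genes 172 had a larger log2 fold change, 160 of them called higher. In GENCODE 1820 bases, or 42.8%, of the MUC20 exon length are shared with MUC20-OT1 on the same strand, and reads in them cannot be assigned to either with certainty.

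MUC1, whose cytoplasmic tail takes part in signalling and which limits access of microbes to the cell surface, had 10502, 12401 and 12152 normalized counts in the BRD8 siRNA libraries, against 6906, 9120 and 7678 in the control libraries. The groups did not overlap, and knockdown library 1, the lowest of its group, came nearest to control library 2, the highest of its group. The mean was 11685 ± 1032 after BRD8 siRNA and 7901 ± 1123 in controls, a log2 fold change of 0.57 (SE 0.112, 95% interval 0.32 to 0.82, limma adjusted p = 0.00917).

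MUC13, a short membrane mucin of mucosal epithelia with growth factor-like domains, had 3437, 3099 and 3034 normalized counts in the BRD8 siRNA libraries, against 2368, 2377 and 2407 in the control libraries. Its control libraries were the most alike of any member, and all knockdown libraries lay above them. The mean was 3190 ± 216 after BRD8 siRNA and 2384 ± 20.3 in controls, a log2 fold change of 0.42 (SE 0.0738, 95% interval 0.25 to 0.59, limma adjusted p = 0.00586).

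MUC4, a partner of the receptor ERBB2, was low and variable. It had 211, 152 and 150 normalized counts in the BRD8 siRNA libraries, against 132, 162 and 99.6 in the control libraries. Control library 2 lay above 2 knockdown libraries, so the groups overlapped. The log2 fold change was 0.39 (SE 0.203, limma adjusted p = 0.222). Without control library 2 it was 0.55 with an adjusted p of 0.0367.

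MUC16, the mucin that carries the CA125 antigen and binds mesothelin, had few reads for the longest coding sequence of the set, 43521 bases. There were 14, 27 and 38 reads in the BRD8 siRNA libraries, against 10, 4 and 14 in the control libraries, or 14.6, 25.6 and 36.7 against 9.48, 4.32 and 14.2 normalized counts. The groups did not overlap, but knockdown library 1 and control library 3 lay close together. The log2 fold change was 1.40 with a wide 95% interval of 0.35 to 2.45 (SE 0.462, limma adjusted p = 0.0656). Since the filter was passed through the BRD8 siRNA group, a higher level there was partly set by the filter. DESeq2 gave a log2 fold change of 1.45 with an adjusted p of 0.0435. In the authors' deposited table the adjusted p was 0.0437, with the same fold change to this precision.

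**Figure D3:**
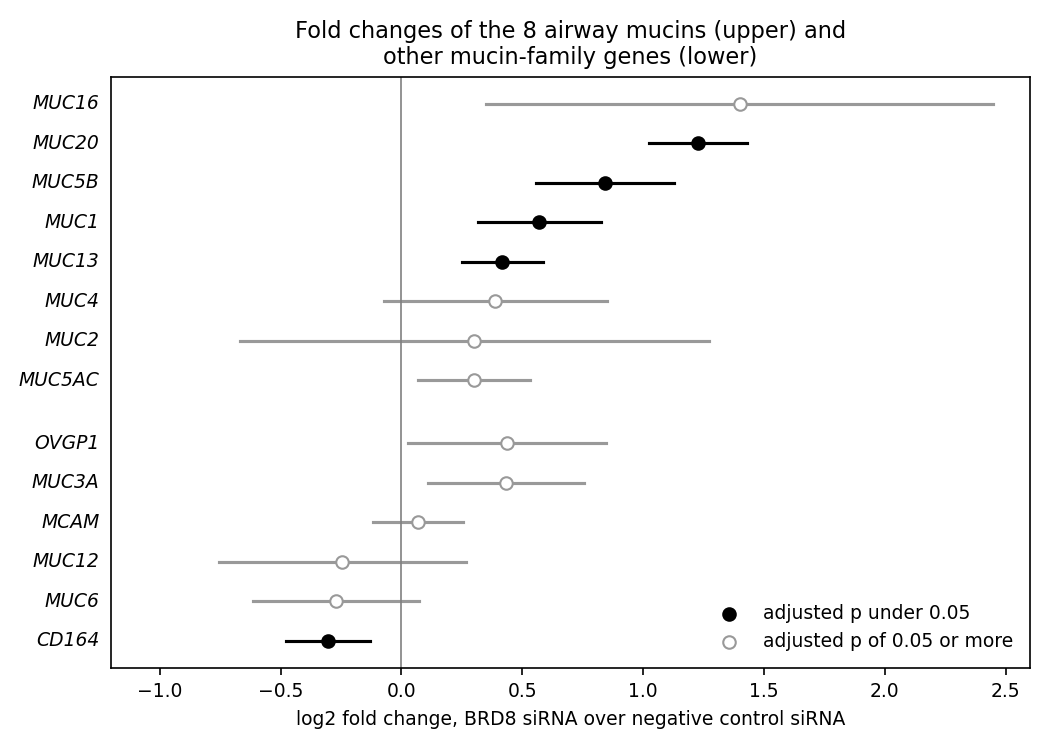
Log2 fold changes of the 8 mucin genes (upper) and of the 6 tested other mucin family genes (lower), BRD8 siRNA over negative control siRNA, with 95% intervals from limma as lines. Filled points passed an adjusted p under 0.05, namely MUC20, MUC5B, MUC1 and MUC13 above 0 and CD164 below it.

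Divided by exon length, the levels allow the members to be set in an approximate order. Reads were counted on build hg19, while the exon lengths are those of GRCh38. Reads in repeats may be missing, and MUC20 shares exon bases with MUC20-OT1. These limits also hold for the sums, ratios and shares that set members against each other. After BRD8 siRNA the mean levels were 2758 normalized counts per kilobase for MUC5AC, 2477 for MUC1, 988 for MUC20, 912 for MUC13, 328 for MUC5B, 8.01 for MUC4, 1.29 for MUC2 and 0.585 for MUC16. In controls they were 2235 for MUC5AC, 1675 for MUC1, 423 for MUC20, 681 for MUC13, 184 for MUC5B, 6.15 for MUC4, 0.995 for MUC2 and 0.213 for MUC16. Within each BRD8 siRNA library MUC20 stood above MUC13, with 1053 over 982, 971 over 886 and 941 over 867 normalized counts per kilobase, whereas MUC13 stood above MUC20 within each control library. Across libraries the ranges of MUC20 and MUC13 overlapped after BRD8 siRNA and not in controls. The same held for the ranges of MUC5AC and MUC1 and for those of MUC2 and MUC16, while the other neighbours in the order were apart in both groups. MUC5AC was the 551st and MUC1 the 683rd most abundant per kilobase, averaged over the libraries, of the 14870 tested genes with an exon length, and MUC16 the 14869th.

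The summed level of the 8 genes was 7752, 7345 and 7323 normalized counts per kilobase in the BRD8 siRNA libraries, against 5022, 5280 and 5317 in the control libraries. The mean was 7474 ± 242 after BRD8 siRNA and 5206 ± 161 in controls, a 1.44-fold difference with no overlap. The 5 membrane mucins together were 1.57-fold higher, at 4386 ± 111 after BRD8 siRNA and 2786 ± 279 in controls. The 3 secreted mucins were 1.28-fold higher, at 3088 ± 342 after BRD8 siRNA and 2421 ± 210 in controls. Each of these 3 sums gave p = 0.1 by exact two-sided permutation, the smallest possible here, and 0.1 after adjustment. The sums cover the 8 genes alone and leave out MUC6, a gel-forming mucin outside the set. MUC6 had 672 ± 162 normalized counts per kilobase after BRD8 siRNA and 798 ± 69.5 in controls, with overlap. A secreted sum with MUC6 was not computed. The log2 ratio of secreted to membrane mucins averaged -0.51 after BRD8 siRNA and -0.20 in controls, but the groups overlapped (exact two-sided permutation p = 0.2, adjusted p = 0.2). In bulk RNA, fewer cells of a type and less RNA per cell cannot be told apart.

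In the summed level of the 8 genes, the share of MUC20 was higher in every BRD8 siRNA library. MUC20 took 13.2% of the summed level after BRD8 siRNA and 8.12% in controls, with shares of 12.9% to 13.6% in the BRD8 siRNA libraries and 7.52% to 8.91% in the control libraries. MUC5AC took 36.8% after BRD8 siRNA and 43.0% in controls, with overlap between the groups. MUC1 took 33.2% after BRD8 siRNA and 32.1% in controls, and MUC13 took 12.2% after BRD8 siRNA and 13.1% in controls, where the MUC13 shares did not overlap. The MUC5B share was 4.39% after BRD8 siRNA and 3.55% in controls, and its range of 4.24% to 4.66% after BRD8 siRNA touched that of 2.86% to 4.25% in controls. The log2 ratio of MUC20 to MUC4, which lie next to each other on chromosome 3, was 6.96 after BRD8 siRNA and 6.13 in controls, with no overlap (exact two-sided permutation p = 0.1, adjusted p = 0.15).

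**Figure D4:**
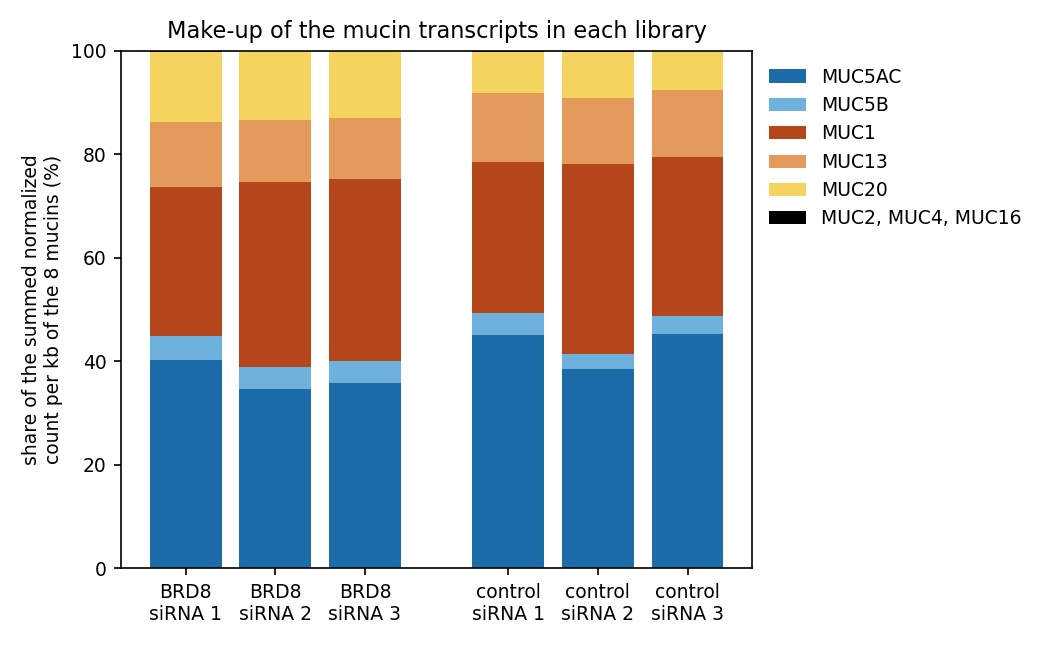
Share of each mucin gene in the summed level per kilobase of the 8 genes, in percent, for each library, with BRD8 siRNA libraries left of control libraries. The MUC20 share lies between 12.9% and 13.6% after BRD8 siRNA and between 7.52% and 8.91% in controls.

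No library was the highest of its group in every member. BRD8 siRNA library 1 was the highest of its group in MUC5AC, MUC5B, MUC13, MUC20, MUC4 and MUC2 and the lowest in MUC1 and MUC16, with MUC1 0.15 below the group mean on the log2 scale and MUC5AC 0.18 above it. Control library 2 was below its group mean by 0.27 for MUC5B and by 0.13 for MUC5AC, but above it by 0.22 for MUC1 and by 0.33 for MUC4. The dependence of the values on gene length also differed between libraries. Length here is that of each gene's longest transcript. Per doubling of it, the slope was -0.00716, -0.0654 and 0.00246 log2 units in the BRD8 siRNA libraries, against 0.0799, -0.0669 and 0.0570 in the control libraries. Library 2 of each group had the lowest slope, and control libraries 1 and 3 had the highest. After removal of this trend and of that with GC content, MUC5AC had a log2 fold change of 0.35 (limma adjusted p = 0.00999) and MUC16 one of 1.49 (adjusted p = 0.0205), and the 4 called genes stayed higher.

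Promoter sequence was available for MUC1, MUC2, MUC4, MUC13 and MUC16 in the RefSeq table (build GRCh38.p14), and not analysed here for MUC5AC, MUC5B and MUC20. The 200 bases before the start of MUC1 and MUC13 are shown, as both genes rose and their start regions differ in letters. Capitals mark matches, on either strand, to a TATA box (TATAAA), a GC box (GGGCGG), an AP-1 motif (TGANTCA) or a cAMP response element (TGACGTCA).
MUC1, chr1:155192916-155193115, minus strand: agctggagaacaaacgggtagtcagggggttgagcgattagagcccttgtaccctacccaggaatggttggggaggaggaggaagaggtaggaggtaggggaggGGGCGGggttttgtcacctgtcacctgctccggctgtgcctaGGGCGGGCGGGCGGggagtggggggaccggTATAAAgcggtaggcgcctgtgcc
MUC13, chr3:124934752-124934951, minus strand: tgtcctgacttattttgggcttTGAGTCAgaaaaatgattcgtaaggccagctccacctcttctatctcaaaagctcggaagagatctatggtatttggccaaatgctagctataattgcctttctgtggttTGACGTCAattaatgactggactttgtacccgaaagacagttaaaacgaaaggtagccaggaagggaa
MUC1 held a TATA box at 24 to 19 bases before the start and 4 GC boxes, of which the 3 nearest the start overlap each other, and its second RefSeq start held the same matches, with the TATA box at 30 to 25 bases. MUC13 held an AP-1 match at 178 to 172 bases and a cAMP response element match at 68 to 61 bases before the start, and no GC box or TATA box. Of 35116 promoters of the same length, 8.59% held a TATA box, 40.1% a GC box, 5.38% an AP-1 match and 1.57% a cAMP response element. Among the genes that did not pass the test, MUC2 held an AP-1 match at 151 to 145 bases, MUC16 a GC box before one start and an AP-1 match at 136 to 130 bases before the other, and MUC4 a GC box and a STAT match (TTCNNNGAA), found in 5.09% of promoters. No promoter of these 5 genes held a FOX motif (TGTTTAC or TATTTAC, in 4.08% of promoters), an E-box of the letters CACGTG (5.49%) or a GATA motif (AGATAA, 7.16%). A match is a description of these letters and not a site of binding.

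Of the 10 nearest tested neighbours outside the set, 1 was called, against 19.0% of all tested genes, and it was lower where its mucin was higher. Next to MUC1, the ubiquitin ligase family gene TRIM46 was lower, at 92.9 ± 5.22 normalized counts after BRD8 siRNA and 135 ± 11.1 in controls (log2 fold change -0.53, limma adjusted p = 0.0205), while the thrombospondin THBS3 on the other side had 0.26 (adjusted p = 0.140). The TRIM46 call was lost in 4 of the 6 fits that leave out a library, with adjusted p up to 0.0721. Without control library 2, THBS3 (log2 fold change 0.37, adjusted p = 0.00998), TOLLIP (0.21, adjusted p = 0.0485) and HEG1 (-1.246, adjusted p = 0.0205) were called as well. In that fit 5229 of all 15354 tested genes were called. In the chromosome 11 cluster, MUC6 beside MUC2 had a log2 fold change of -0.27 (adjusted p = 0.252) and TOLLIP beside MUC5B 0.18 (adjusted p = 0.139). In the chromosome 3 group, the kinase gene TNK2 beside MUC4 had -0.14 (adjusted p = 0.525) and MIR570 beside MUC20 0.38 (adjusted p = 0.222). Beside MUC13, ITGB5 had -0.15 (adjusted p = 0.259) and HEG1 -0.97 (adjusted p = 0.109), and beside MUC16, ZNF558 had 0.27 (adjusted p = 0.0592) and ZNF317 -0.05 (adjusted p = 0.743). ZNF558 passed the threshold with edgeR, quantile scaling, the replicate block and the length and GC correction, with adjusted p of 0.00514 to 0.0495, and ITGB5 passed with the length and GC correction (adjusted p = 0.0389). Neighbours are the nearest tested genes in GENCODE order.

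Of 14 other mucin family genes in the table, 6 had a mean of at least 10 and could be tested, of which none was called higher and CD164 was lower. Over all tested genes 10.1% were called higher and 8.93% lower. By unadjusted p under 0.05, 2 were higher, edgeR called none higher, and DESeq2 and the authors' deposited table each called 1. CD164, a sialomucin of the cell surface and endosomes, had 12034 ± 724 normalized counts after BRD8 siRNA and 14859 ± 855 in controls (log2 fold change -0.30, SE 0.0772, limma adjusted p = 0.0260). That call was lost without BRD8 siRNA library 1 or 2 or control library 1 or 3, with adjusted p up to 0.109. MUC6, the gel-forming mucin of the stomach, had 7232, 5030 and 4730 normalized counts in the BRD8 siRNA libraries, against 6724, 6138 and 7309 in the control libraries. BRD8 siRNA library 1 stood above the other two of its group, and the log2 fold change was -0.27 (limma adjusted p = 0.252). Without that library it was -0.46 with an adjusted p of 0.0247. MUC3A, a membrane mucin of the intestine, had 0.43 with no overlap between groups (adjusted p = 0.0645), MUC12 -0.24 (adjusted p = 0.4996), OVGP1 0.44 (adjusted p = 0.127) and MCAM 0.07 (adjusted p = 0.612).

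Genes that make, modify and release mucins were described from lists chosen with earlier results of these data known. Each list count below stands beside the share over all tested genes, 10.1% called higher and 8.93% lower. In the list of mucus assembly and partner proteins, 12 of 14 tested genes rose and none fell, with a median log2 fold change of 0.81. None was lower by unadjusted p under 0.05, edgeR, DESeq2 or the authors' deposited table. The list is not limited to mucus proteins. Its called genes include HSPA5, P4HB, PDIA4 and PDIA3, general folding proteins of the endoplasmic reticulum. These rose by 0.51, 0.36, 0.32 and 0.27 on the log2 scale. FCGBP, a protein that joins the mucus gel, had 315 ± 22.6 normalized counts after BRD8 siRNA and 85.1 ± 15.3 in controls (log2 fold change 1.89, limma adjusted p = 1.76e-04). AGR2, the disulfide isomerase required for making gel-forming mucins, had 39710 ± 1733 after BRD8 siRNA and 18744 ± 2826 in controls (1.09, adjusted p = 4.83e-04). The mucus lectin ZG16B rose by 2.13 and the scavenger receptor family gene DMBT1 by 1.17 on the log2 scale. ZG16B and TFF2 had control means of 9.49 and 7.12 normalized counts and passed the filter of 10 only through the BRD8 siRNA group. A higher level of these genes there was thus partly set by the filter. With a filter of a mean of at least 50, 9 of 10 tested genes of the list were higher. In the fits that leave out a library the count was 8 to 12 genes.

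**Figure D5:**
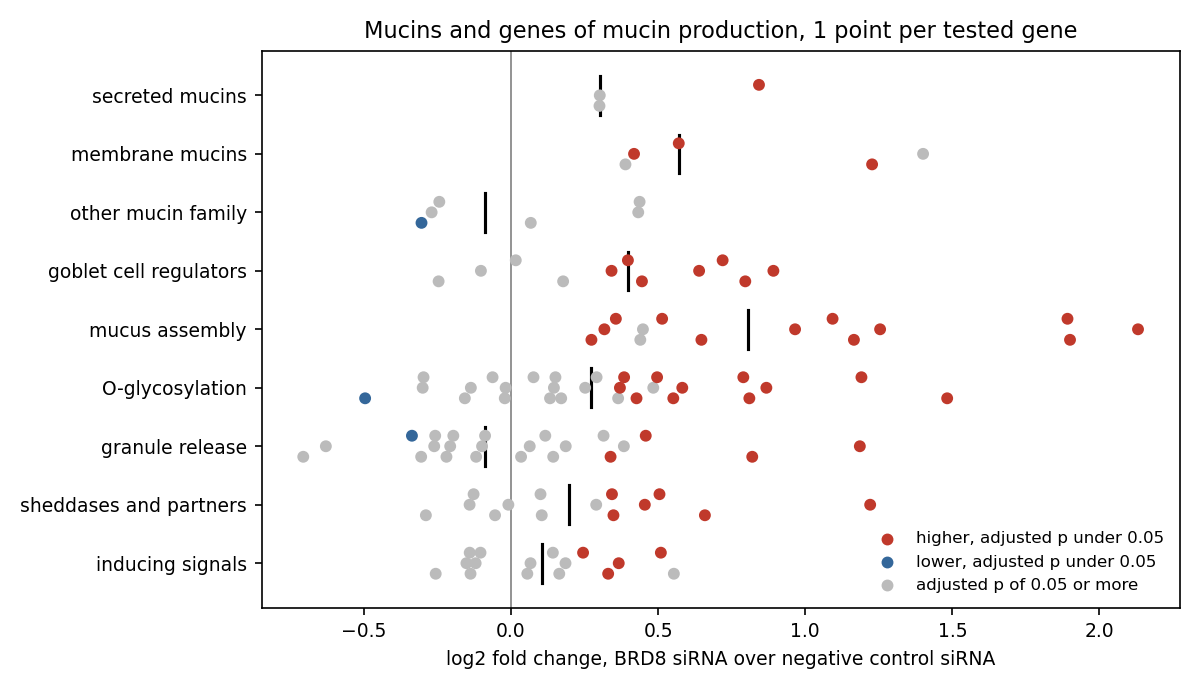
Log2 fold change, BRD8 siRNA over negative control siRNA, of each tested gene in each list, with the list's median as a black line and colour for limma adjusted p under 0.05. In the mucus assembly list 12 of 14 genes are called higher, and in the granule release list 4 of 23, against 10.1% of all tested genes.

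Of the transcription factors in the list of goblet cell regulators, which is not limited to factors that promote these cells, 7 of 11 tested genes rose and none fell. The median log2 fold change was 0.40. SPDEF, the goblet cell factor, had 316 ± 38.1 normalized counts after BRD8 siRNA and 192 ± 25.1 in controls (log2 fold change 0.72, limma adjusted p = 0.00771). FOXA3, which also promotes goblet cells, had 1466 ± 63.4 after BRD8 siRNA and 851 ± 134 in controls (0.80, adjusted p = 0.00251). FOXA1 rose by 0.64 and STAT6, the factor that carries interleukin-13 signals, by 0.40. Without control library 3 the count was 4 genes. One gene, HNF4A, was lower by unadjusted p under 0.05, DESeq2 and the authors' deposited table, and not by edgeR, with a log2 fold change of -0.25 (limma adjusted p = 0.0532). The list's count of lower genes was also 1 with a filter of a mean of at least 50 and after removal of the length and GC trends. The same held under the replicate block and without BRD8 siRNA library 1. Over all tested genes 1358, 2446, 1962 and 838 were lower in these fits.

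Of the enzymes of mucin-type O-glycosylation, 11 of 28 tested genes rose and 1 fell, with a median of 0.27. ST6GALNAC1, which adds sialic acid to the first sugar, had 4096 ± 239 normalized counts after BRD8 siRNA and 1794 ± 131 in controls (log2 fold change 1.19, limma adjusted p = 1.09e-04). The sulfotransferase CHST4 rose by 1.48, the fucosyltransferase FUT2 by 0.79 and GALNT1, which starts the chains, by 0.55. GALNT6, another starting enzyme, fell by 0.50 on the log2 scale, at 620 ± 37.2 normalized counts after BRD8 siRNA and 874 ± 37.8 in controls (limma adjusted p = 0.00497). After removal of the length and GC trends, 17 rose and 4 fell, where 2489 of all 15354 tested genes were higher and 2446 lower. Without BRD8 siRNA library 1 or control library 2, 2 fell, where 838 and 2784 of all tested genes were lower.

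In the granule release list 4 of 23 tested genes were higher and 1 was lower, where 10.1% of all tested genes were higher and 8.93% lower. The median log2 fold change was -0.09, against -0.01 over all tested genes. SYTL2 rose by 1.19 and MYRIP by 0.82, both partners of secretory granule Rab proteins, and the priming factors UNC13B and UNC13D rose by 0.46 and 0.34. The UNC13D call was lost in 4 of the 6 fits that leave out a library, with adjusted p up to 0.0833. The count of lower genes in this list was unstable, with 0 to 5 in fits that leave out a library and 6 lower after removal of the length and GC trends. Over all 15354 tested genes the counts of lower genes were 528 to 2784 and 2446 in the same fits.

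Among the proteases that shed membrane mucins and the proteins that bind them, 6 of 14 tested genes rose and none fell, with a median of 0.20. The MUC16 ligand mesothelin, MSLN, had 702 ± 93.5 normalized counts after BRD8 siRNA and 303 ± 64.1 in controls (log2 fold change 1.22, limma adjusted p = 0.00156). The mucin-binding galectin LGALS3 rose by 0.66, CTNNB1, the beta-catenin that binds the MUC1 tail, by 0.45 and the membrane linker EZR by 0.34. Without BRD8 siRNA library 2 or control library 3 the count was 3, and the EZR call was lost in both fits, with adjusted p of 0.0635 and 0.0648. In the list of signals that induce mucins, 4 of 16 tested genes rose and none fell, with a median of 0.10. The 4 were the EGF receptor ligand HBEGF (0.51), IL4R (0.37), IL1R1 (0.33) and TGFA (0.24). In 5 of the 6 fits that leave out a library that count was 1 or 2, and HBEGF was the one of these 4 that stayed called in every fit leaving out a library. In both lists 1 gene was lower by unadjusted p under 0.05 and 0 by edgeR, DESeq2 or the authors' deposited table. Control library 2 bears on these counts. Without it 2 of 14 genes of the protease and partner list, 3 of 16 of the inducing list and 2 of 11 of the transcription factor list were lower. Of the other mucin family genes 2 of 6 were higher. In that fit 2784 of all 15354 tested genes were lower and 2445 higher, so these counts of lower genes were near the share over all genes.

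Markers of other cells moved beside these genes, where 10.1% of all tested genes were called higher. Of 5 tested basal cell markers 3 rose, TP63, KRT14 and KRT15, and their list summed to 1384 to 1624 normalized counts in the BRD8 siRNA libraries and 736 to 985 in the control libraries. Of 3 tested intestinal markers CDH17 and VIL1 rose, by 1.68 and 0.71, in a list that summed to 49241 to 56976 after BRD8 siRNA and 35444 to 48805 in controls, with CDX2 at 5.56 after BRD8 siRNA and 3.00 in controls and FABP1 at 0. Of 5 tested ciliated cell markers RSPH1 rose, while the median log2 fold change of the 5 was -0.11. FOXJ1, at 10.4 normalized counts after BRD8 siRNA and 5.32 in controls, was under the filter and not tested. The ciliated list summed to 5771 to 8801 after BRD8 siRNA and 6121 to 7531 in controls. Of 4 alveolar markers SFTPD rose, with a list sum of 1504 to 1804 after BRD8 siRNA and 1570 to 1759 in controls, and of 3 non-epithelial markers CD68 rose, with sums of 1968 to 2269 after BRD8 siRNA and 1522 to 1911 in controls. Of 9 epithelial markers 4 rose, CDH1, KRT8, CFTR and ELF3, and the list summed to 519614 to 575691 after BRD8 siRNA and 391205 to 478741 in controls. Their part in the mucin results was not tested.

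Genes whose pattern over the 6 libraries was nearest to that of each called mucin were found by Euclidean distance between log2 profiles centred on each gene's mean, across 13061 genes whose mean was 50 or more. For MUC20 they were RGS2 (distance 0.0494), ST6GALNAC1 (0.0794) and the water channel AQP3 (0.133). For MUC13 they were MYRF (0.0393), SNX33 (0.0645) and RNF43 (0.0670). For MUC1 they were NDRG1 (0.0953), APOL2 (0.117) and TXNDC17 (0.121), and for MUC5B SLC26A7 (0.184), SLC1A3 (0.200) and ALPK3 (0.215). The distances describe 6 libraries that also share depth and treatment, and no test was made of them. Among the members themselves MUC5AC and MUC13 were nearest, at 0.240, and MUC4 and MUC16 farthest apart, at 2.38.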

How the data were processed

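RNA-seq was single-end, from TruSeq RNA v2 libraries, which do not mark strand, per the labels' protocols. The extraction protocol speaks of HBE cells while every sample label names Calu3, and the labels were followed. Build hg19 and the tools STAR 2.6, featureCounts 1.6.3 (of Subread) and DESeq2 1.22.1 appear in the submitters' processing notes, while the sources used here do not give the annotation, strand setting or filters. The authors deposited a normalized signal, counts divided by a size factor per library, beside log2 fold changes with standard errors, a score, p-values and adjusted p-values. The authors' fold change was checked to be BRD8 over control, and their score has the other sign. The fold change column, unit other in the deposited table, holds spreadsheet errors in rows without values, 4756 genes with no read.

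The value of 1 read in each library gave back whole reads for 100% of values within 0.01. The floor of 3 reads covers counting error alone, as there are no molecular identifiers. Trended limma 3.58.1 (R 4.3.3) was fitted to log2(value + 1) with treatment alone, for the 15354 genes at a mean of 10 or more, with Benjamini-Hochberg adjustment. Fold changes on this scale understate changes of low genes. edgeR 4.0.16 called 2969 genes and DESeq2 1.42.0 called 3236 on the recovered reads, against 2920 by limma. The method was tested on simulated data. Single values were compared by exact permutation. Alternatives were 2 pseudocounts, 2 filters, quantile and TMM scaling, a length and GC correction, a replicate block, each library left out, both count tests and the authors' table, 17 in all. GENCODE v29, on GRCh38, gave exon lengths, the longest transcripts of the length and GC correction, neighbours and repeats, and RefSeq the promoters. Of the symbols 23748 matched GENCODE directly, 26 by current and 763 by older symbols, and 1827 did not match.

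The members, lists and naming rule were chosen with earlier results of these data known. All 8 mucins are named, and other mucin genes with a mean of at least 10. From each list up to 4 called genes are named by smallest adjusted p. Both neighbours of each member and the 3 genes nearest in pattern to each called member are named too. Among genes named apart from this rule are HSPA5, P4HB, PDIA4 and PDIA3. One called gene of the granule release list is not reported here.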

Additional observations from a re-analysis of the deposited data

How the results depend on the processing

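MUC20, MUC5B, MUC1 and MUC13 were called higher under all 17 alternatives, with log2 fold changes of 1.14 to 1.31, 0.71 to 0.95, 0.48 to 0.68 and 0.36 to 0.45. MUC5AC and MUC16 passed the threshold in 4 alternatives each: 0.35 and 1.49 after removal of length and GC trends, 0.30 and 1.45 with DESeq2, the same with the authors' deposited table, and 0.30 (adjusted p = 0.0320) and 1.40 (adjusted p = 0.0369) under the replicate block. Their adjusted p ranged from 0.00999 to 0.200 and from 0.0205 to 0.215 over all alternatives. Leaving out 1 library gave -0.075 to 0.61 for MUC2, 0.21 to 0.55 for MUC4, 0.21 to 0.36 for MUC5AC and 0.98 to 1.74 for MUC16. The low reads of MUC2 and MUC16 limit what the depth can show.

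Genes called over the whole table numbered 1360 to 5229 without 1 library (832 to 2445 higher and 528 to 2784 lower), the most without control library 2, and 4935 (2489 higher and 2446 lower) after removal of length and GC trends. The replicate block called 3901. Same-numbered libraries correlated by -0.0845, 0.335 and 0.155, so the numbers were not taken to pair the libraries. The summed mucin difference was 0.43 on the log2 scale without division by length, against 0.52 with it. ZNF317 ranged from -0.13 to 0.018, reversed without BRD8 siRNA library 2. The cause of these shifts was not tested.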

Other observations

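MUC21, a membrane mucin below the filter on low values and singled out after its values were seen, had 12, 17 and 4 reads in the BRD8 siRNA libraries, against 0, 0 and 0 in the control libraries. With the control libraries set to a floor of 3 reads each, its mean was at least 3.56-fold higher after BRD8 siRNA. The other mucin genes under the filter, MUC7, MUC15, MUC17, MUC19, MUC22, EMCN and MUCL1, had 0 to 4 reads in every library, and MUCL1 had none.

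The 8 mucin genes took 0.195% to 0.223% of the reads in the BRD8 siRNA libraries and 0.143% to 0.161% in the control libraries. MUC5AC ranked 54th, 73rd and 67th of all genes by reads in the BRD8 siRNA libraries, against 76th, 119th and 79th in the control libraries.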
